A study of Aspergillus nidulans with 32 samples.

Results

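A set of 9 genes of Aspergillus nidulans, a filamentous fungus, that regulate nitrogen use or bring ammonium into amino acids was followed through 2 rounds of nutrient removal. They were taken by gene identifier, 9 of the 10681 genes in the deposited table. The rule made no use of their values, but earlier results of these data were known when it was set. The regulators were areA (AN8667), areB (AN6221), nmrA (AN8168), tamA (AN2944) and meaB (AN4900). The others were meaA (AN7463), an ammonium permease gene, and the enzyme genes gdhA (AN4376), glnA (AN4159) and gltA (AN5134). All 9 passed the filter on low counts, with at least 657 reads in each culture.

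Nitrogen use in A. nidulans is governed by AreA, a GATA-type activator that is needed for growth on nitrogen sources other than ammonium and glutamine. AreB is a second GATA factor that opposes it, NmrA binds AreA and holds it inactive when nitrogen is plentiful, MeaB is a bZIP protein that favours repression, and TamA is a partner of AreA that also activates gdhA. Nitrate is reduced to ammonium, which the NADP-dependent glutamate dehydrogenase (gdhA) joins to 2-oxoglutarate to give glutamate, while glutamine synthetase (glnA) and glutamate synthase (gltA) together form a second route. Transcripts were measured here, not the proteins or their activity.

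The study sequenced polyadenylated RNA of mycelium from 16 shaken liquid cultures. Each of the 8 groups had a culture A and a culture B, each read in 2 technical libraries. Grown cultures were kept for 24 h in a minimal medium whose carbon source was glucose and whose sole nitrogen source was nitrate, and starved cultures for 20 h in it and then 4 h in a salt solution lacking both carbon and nitrogen. Naive refed cultures grew for 24 h and pre-starved refed cultures passed through the starvation, and each then spent 2 h in fresh minimal medium. Naive and pre-starved salt cultures went on for 1 h into the salt solution, and naive and pre-starved used cultures for 1 h into medium that the fungus had exhausted by 48 h of growth. The labels list RKIS42.17, a strain with alcA(p)-sGFP-aflR in which aflR is under the alcA promoter, beside WT FGSC#4, and tie no strain to a sample. The salt solution lacks carbon and nitrogen together, and the labels do not settle which of them the used medium lacked, so responses to either one cannot be told apart. Starved and pre-starved cultures also grew for 20 h and not 24 h and had a further change of medium, and these cannot be told apart from the starvation.

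Culture totals ran from 39526910 to 66121549 counts. Levels are CPM (counts scaled to a common library size) after TMM scaling, and levels of different genes are compared only per kb of exon (FPKM). Differences are log2 changes from edgeR's quasi-likelihood test over 10022 genes with Benjamini-Hochberg adjustment, and a gene is called where the adjusted p is under 0.05. With library totals in place of TMM the median change of all genes shifted by 0.50 for starved against grown, by 0.53 and 0.76 for salt against refed cultures (naive and pre-starved), and by 0.37 and 0.60 for used against refed. It shifted by -0.67 for refed against starved, by -0.17 between refed histories, by 0.24 and 0.23 in the interactions below and by -0.16 for used against salt in both histories, and by under 0.1 in the other comparisons. RNA came from whole mycelium, so fewer cells of a type and less RNA per cell cannot be told apart.

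In growth each of the permease and enzyme genes was more abundant than any of the regulator genes. Per kb, glnA stood at 5440.3 ± 242 FPKM (SD, n = 2) and ranked 9 among the tested genes, gdhA at 1197 ± 54.2, meaA at 743 ± 77.1 and gltA at 142 ± 10.1 FPKM. Among the regulators meaB was the most abundant at 87.8 ± 1.68 FPKM, followed by areA at 51.6 ± 1.52, tamA at 45.0 ± 6.46, areB at 33.9 ± 0.271 and nmrA at 31.2 ± 5.97 FPKM, the last 2 overlapping between cultures. The group means of meaB spanned 2.56-fold over the 8 groups, those of the other regulators 4.32-fold (areA) to 8.46-fold (tamA), and those of the assimilation genes 16.9-fold (glnA) to 87.2-fold (gltA).

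**Figure D1:**
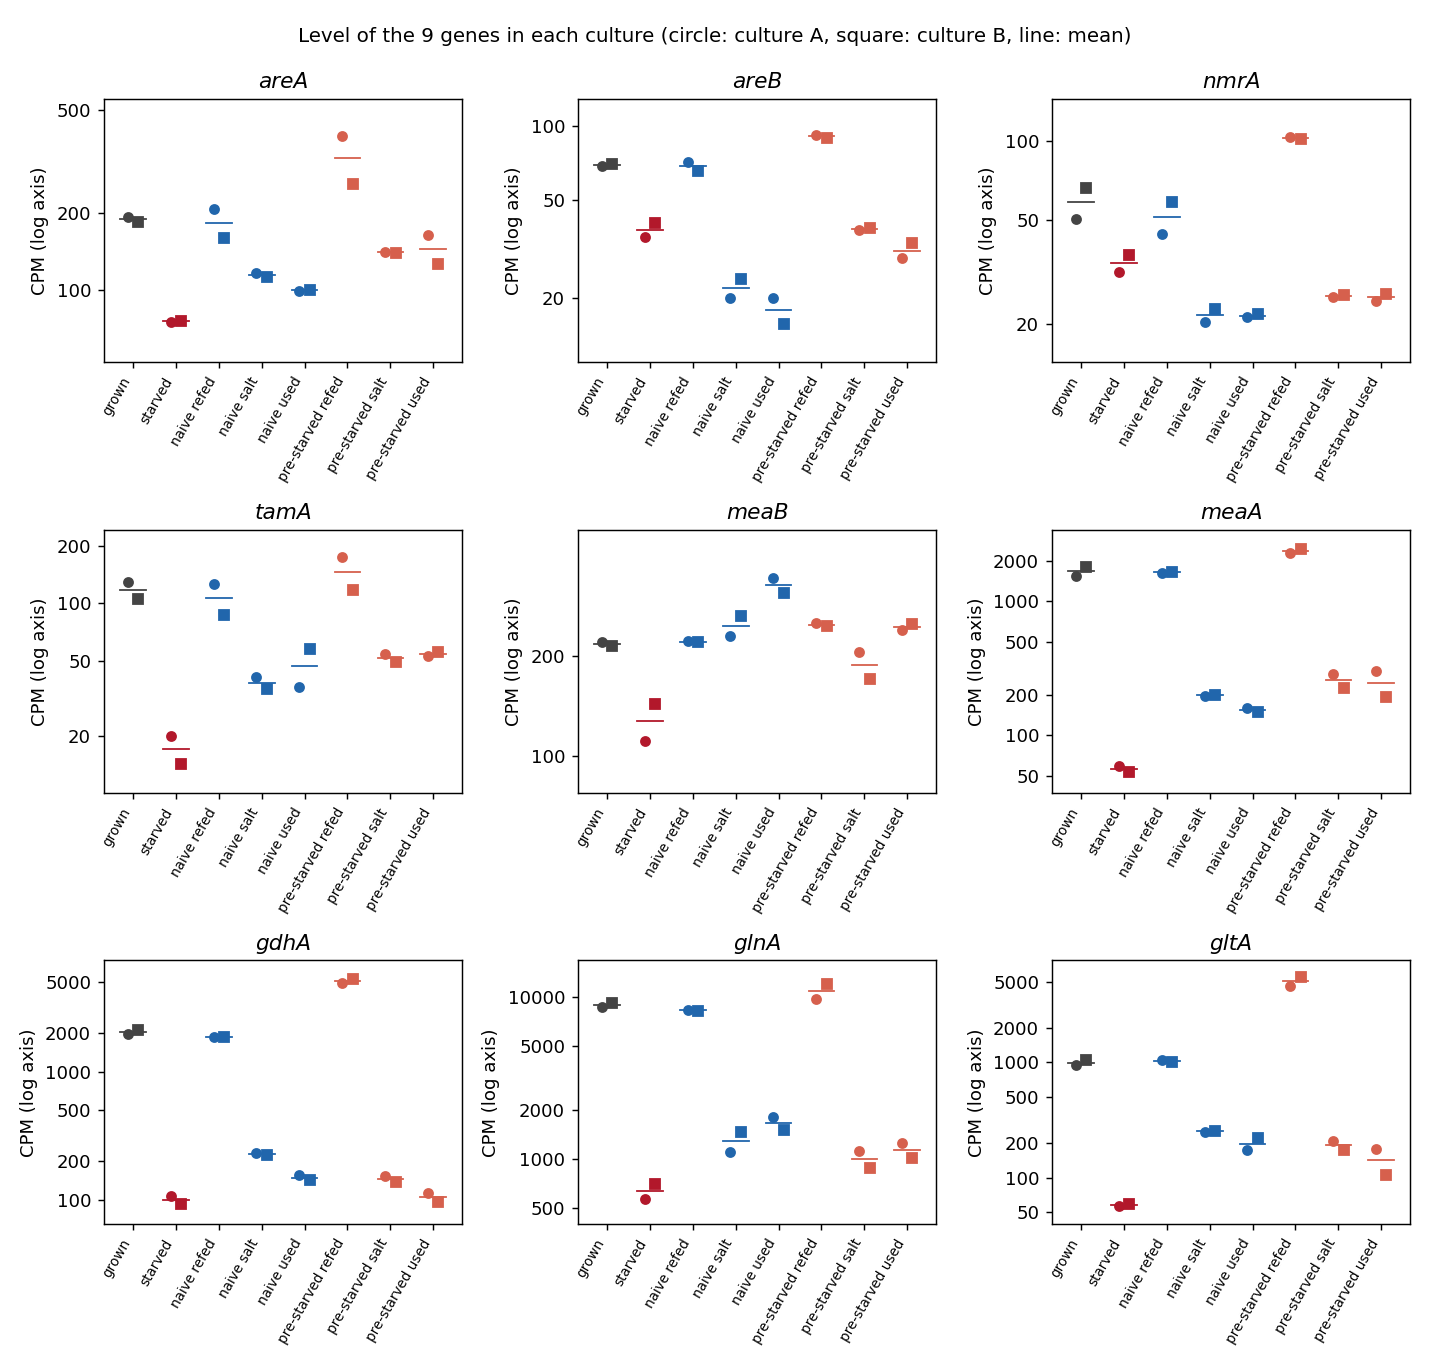
Level of each of the 9 genes in every culture, in TMM-scaled CPM on a log axis that differs between panels; circles are culture A, squares culture B and lines the mean of the 2. The pre-starved refed cultures had the highest mean for every gene but meaB, whose highest mean was in naive used cultures.

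The order of the groups was much alike for 8 of the genes. Their highest mean lay in the pre-starved refed cultures, followed by the grown and naive refed cultures, which overlapped for areA, areB, nmrA, tamA, meaA and gltA. For tamA the pre-starved refed cultures also overlapped the grown ones. The lowest mean lay in starved cultures for areA, tamA, meaA, gdhA, glnA and gltA, and in naive used cultures for areB and nmrA. Neighbouring salt and used groups often overlapped, among them the naive salt and naive used cultures for areB, nmrA and tamA and the pre-starved salt and pre-starved used cultures for areA, nmrA, tamA, meaA and gltA.

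The first starvation lowered all 9 genes. Against a background of 34.6% of tested genes called lower, 9 of 9 were called, with a median log2 change of -2.77 beside 0.10 over all tested genes. The permease and enzyme genes fell most, from 13.9-fold (glnA) to 29.8-fold (meaA), and the regulators by 1.71-fold (nmrA) to 6.83-fold (tamA).

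Grown cultures A and B held 1553 and 1799 CPM of meaA, the ammonium permease gene, and starved cultures 59.3 and 53.0 CPM (log2 change -4.90, SE 0.21, adjusted p 1.03e-09). For gdhA the levels were 1982 and 2113 CPM in grown and 107 and 92.2 CPM in starved cultures (log2 change -4.36, SE 0.14, adjusted p 1.26e-10). For gltA they were 947 and 1047 and then 56.4 and 59.2 CPM (log2 change -4.11, SE 0.23, adjusted p 8.82e-09). The groups did not overlap for any of these genes, and their 2 cultures lay close together. The glutamine synthetase gene glnA went from 8621 and 9180.0 to 571 and 707 CPM (log2 change -3.80, SE 0.21, adjusted p 8.34e-09), and from rank 9 to rank 236 by FPKM.

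Among the regulators tamA fell most, from 129.6 and 106 CPM in grown to 20.1 and 14.4 CPM in starved cultures (log2 change -2.77, SE 0.27, adjusted p 1.32e-06). The activator gene areA went from 192 and 185 to 75.3 and 76.3 CPM (log2 change -1.31, SE 0.18, adjusted p 3.03e-05). Its antagonist areB went from 68.9 and 69.7 to 35.2 and 40.3 CPM (log2 change -0.88, SE 0.13, adjusted p 7.21e-05). None of the 3 overlapped between groups, and tamA differed most between the 2 starved cultures. The inhibitor gene nmrA went from 50.3 and 66.0 to 31.5 and 36.5 CPM (log2 change -0.77, SE 0.15, adjusted p 5.68e-04), and meaB from 220.5 and 215 to 111 and 143 CPM (log2 change -0.78, SE 0.13, adjusted p 1.77e-04). With library totals nmrA (log2 change -0.27, adjusted p 0.104) and meaB (-0.28, adjusted p 0.0583) were not called.

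Markers of conidiophores and conidia, the asexual spores, moved with the starvation. The summed level of the 7 markers (brlA, abaA, wetA, rodA, dewA, wA and yA) was 23.5 and 25.1 CPM in grown and 1072 and 1500.5 CPM in starved cultures, and 5 of the 7 were called higher, against 38.8% of tested genes. It was 24.3 and 22.4 CPM in naive refed against 2183 and 1728 CPM in pre-starved refed cultures, with 5 of 7 called higher, against 21.4% of tested genes. The hydrophobin gene rodA and the regulator gene brlA carried most of the rise, while abaA and wetA stayed at a few CPM. No marker was at 0 in a group mean. Their part in the results on the nitrogen genes was not tested.

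Refeeding for 2 h brought all 9 genes up again. Each was called higher in pre-starved refed than in starved cultures, where 35.2% of tested genes were called higher, and the median log2 change was 3.08 beside -0.15 over all genes. Fold differences ran from 1.95-fold (meaB, log2 change 0.96, SE 0.13, adjusted p 2.55e-05) to 87.2-fold (gltA, log2 change 6.45, SE 0.26, adjusted p 4.50e-10). The regulator tamA, which had fallen most, rose by most among the regulators (log2 change 3.08, SE 0.28, adjusted p 4.90e-07). These cultures share the starved group with the comparison above, so the fall and the rise are not independent measurements.

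Fresh medium alone left the levels of naive cultures near those of growth. None of the 9 genes was called between naive refed and grown cultures, and 0 had an unadjusted p under 0.05 in edgeR. DESeq2 and limma with the libraries kept apart also called 0. The log2 changes ran from -0.19 (nmrA) to 0.04 (gltA) with adjusted p from 0.596 to 0.978, and the 95% intervals lay within -0.69 to 0.49, while 3.10% of tested genes were called.

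After the same 2 h in fresh medium, pre-starved cultures held more transcript of gltA, gdhA, nmrA, areA, meaA and areB than naive cultures. Higher calls were made for 6 of the 9 genes against 21.4% of tested genes, and none was called lower. This comparison asks whether a past starvation still shows in refed cultures.

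The glutamate synthase gene gltA stood at 1059 and 998 CPM in naive and 4617 and 5470.2 CPM in pre-starved refed cultures, a 4.91-fold difference (log2 change 2.29, SE 0.21, adjusted p 6.79e-06). Its route partner glnA stood at 8305 and 8202 CPM in naive and 9699.8 and 11966 CPM in pre-starved cultures and was not called (log2 change 0.39, 95% interval -0.02 to 0.81, adjusted p 0.117). The glutamate dehydrogenase gene gdhA went from 1852 and 1873 CPM in naive to 4925 and 5272 CPM in pre-starved cultures, a 2.74-fold difference (log2 change 1.45, SE 0.12, adjusted p 3.26e-06). All 3 genes were higher in both pre-starved cultures than in either naive one, but by sizes that ranged widely. For the permease gene meaA the levels were 1640.0 and 1671 CPM in naive and 2288 and 2461 CPM in pre-starved cultures (log2 change 0.52, SE 0.18, adjusted p 0.0362).

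The inhibitor gene nmrA stood at 43.9 and 58.3 CPM in naive and 104 and 101 CPM in pre-starved refed cultures (log2 change 1.00, SE 0.15, adjusted p 2.73e-04), and the groups did not overlap. For areA the levels were 206 and 159.7 CPM in naive and 396 and 259 CPM in pre-starved cultures (log2 change 0.84, SE 0.18, adjusted p 0.00274), with the pre-starved cultures far apart, and the log2 change was 0.50 without pre-starved refed culture A. For areB they were 71.3 and 65.8 CPM in naive and 92.2 and 89.7 CPM in pre-starved cultures (log2 change 0.41, SE 0.13, adjusted p 0.0268). The calls of areB and meaA were lost with library totals (log2 changes 0.24 and 0.35) and on leaving out any single culture of the 4 (0.35 to 0.47 and 0.47 to 0.57). The levels of tamA were 127 and 86.9 CPM in naive and 175 and 117 CPM in pre-starved cultures, which overlapped, and it was not called (log2 change 0.45, 95% interval -0.11 to 1.00, adjusted p 0.177). Its log2 change was 0.13 without pre-starved refed A, 0.20 without naive refed B, 0.71 without pre-starved refed B and 0.75 without naive refed A. Limma with duplicate correlation, which took the 32 technical libraries as observations, called tamA and glnA higher (adjusted p 0.0143 and 0.00141). Nor was meaB, at 221 and 219.7 CPM in naive and 250.4 and 245 CPM in pre-starved cultures (log2 change 0.17, 95% interval -0.12 to 0.45, adjusted p 0.323).

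**Figure D2:**
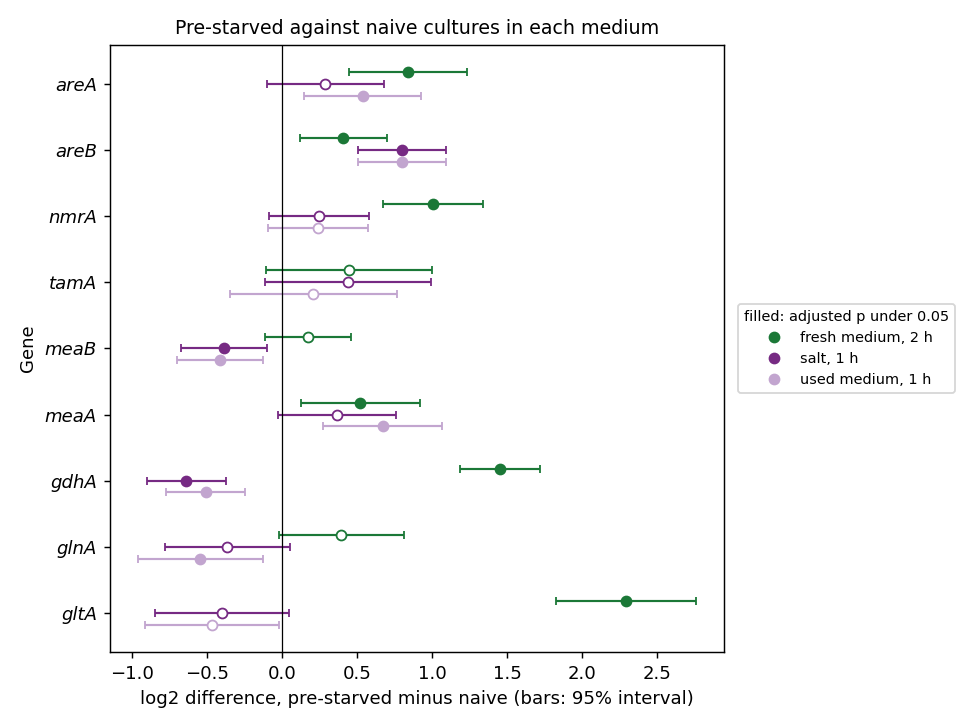
Log2 difference between pre-starved and naive cultures, with its 95% interval, in fresh medium (2 h), salt solution (1 h) and used medium (1 h); filled points have an adjusted p under 0.05. In fresh medium gltA and gdhA lie at 2.29 and 1.45, and in salt at -0.40 and -0.64.

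One hour in salt lowered 8 of the 9 genes in naive cultures, where 39.1% of tested genes were called lower. The exception was meaB. In pre-starved cultures 9 of 9 were called lower, against 36.4% of tested genes. The median log2 change of the genes was -1.65 in naive and -2.01 in pre-starved cultures, beside -0.03 and 0.09 over all genes.

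In salt gdhA stood at 231 and 223 CPM in naive cultures (log2 change -3.04, SE 0.13, adjusted p 7.05e-10) and at 153 and 138 CPM in pre-starved cultures (log2 change -5.13, SE 0.14, adjusted p 5.26e-11). For gltA the levels were 248 and 256 CPM in naive (log2 change -2.03, SE 0.21, adjusted p 2.00e-06) and 207 and 174 CPM in pre-starved cultures (log2 change -4.73, SE 0.24, adjusted p 2.64e-09). Both genes thus fell farther in pre-starved cultures, from their higher refed levels. The levels of glnA were 1109 and 1478 CPM in naive (log2 change -2.67, SE 0.20, adjusted p 9.89e-08) and 1122 and 884 CPM in pre-starved cultures (log2 change -3.43, SE 0.21, adjusted p 1.39e-08). Those of meaA were 198 and 201 CPM in naive (log2 change -3.05, SE 0.20, adjusted p 2.13e-08) and 288 and 226 CPM in pre-starved cultures (log2 change -3.21, SE 0.20, adjusted p 1.46e-08). Every salt culture lay below every refed culture of its history for these 4 genes.

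Among the regulators, areB changed most in naive cultures, to 20.0 and 23.9 CPM (log2 change -1.65, SE 0.14, adjusted p 2.30e-07), and stood at 37.9 and 38.4 CPM in pre-starved ones (log2 change -1.25, SE 0.13, adjusted p 2.63e-06). The inhibitor gene nmrA stood at 20.4 and 22.7 CPM in naive cultures (log2 change -1.25, SE 0.15, adjusted p 9.53e-06) and changed most in pre-starved ones, to 25.3 and 25.7 CPM (log2 change -2.01, SE 0.16, adjusted p 1.29e-07). Transcripts of both opponents of AreA thus fell after either history. So did tamA, to 41.1 and 35.3 CPM in naive (log2 change -1.48, SE 0.26, adjusted p 2.01e-04) and 54.5 and 49.1 CPM in pre-starved cultures (log2 change -1.49, SE 0.26, adjusted p 1.83e-04). The activator gene areA reached 117 and 113 CPM in naive (log2 change -0.67, SE 0.18, adjusted p 0.00467) and 141 and 139.8 CPM in pre-starved cultures (log2 change -1.22, SE 0.18, adjusted p 4.84e-05). Its call in naive cultures was lost with library totals (log2 change -0.15, adjusted p 0.510) and without naive refed culture A (-0.47, adjusted p 0.0625).

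The fall on entering salt was larger after a past starvation for gltA, gdhA and nmrA. These genes also started from higher refed levels after it (log2 differences 2.29, 1.45 and 1.00). These genes and meaB, which was not called on entering salt in naive cultures, were called lower in the test of the difference between the 2 changes, the interaction of history and salt, in which 12.0% of tested genes were called lower. The difference was -2.70 on the log2 scale for gltA (SE 0.29, adjusted p 8.99e-05) and -2.09 for gdhA (SE 0.17, adjusted p 1.86e-05). It was -0.76 for nmrA (SE 0.22, adjusted p 0.0200) and -0.56 for meaB (SE 0.19, adjusted p 0.0407). For glnA it was -0.76 (95% interval -1.35 to -0.17, adjusted p 0.0530) and for areA -0.55 (95% interval -1.10 to -0.0027, adjusted p 0.122). Other settings called glnA, with adjusted p 0.0402 for RLE size factors, 0.0101 for DESeq2 and 1.24e-04 for limma with duplicate correlation, and so did leaving out pre-starved refed A, naive salt A or pre-starved salt A (-0.90, -0.95 and -0.94). They called areA with DESeq2 (adjusted p 0.0426), limma with duplicate correlation (adjusted p 0.0124) and without pre-starved refed B (-0.83). For areB the difference went the other way, at 0.39, and was not called (95% interval -0.02 to 0.80, adjusted p 0.140). Library totals (0.63, adjusted p 0.0296) and limma with duplicate correlation (adjusted p 0.0497) called areB higher. The call of nmrA was lost with library totals (adjusted p 0.0615) and without naive refed A, naive salt B or either pre-starved salt culture (-0.57, -0.68, -0.75 and -0.77). The call of meaB was lost with library totals (adjusted p 0.171), with the culture letter as a block (adjusted p 0.0512) and on leaving out any 1 of the 4 refed cultures (-0.57 to -0.54), naive salt B (-0.45) or pre-starved salt B (-0.43).

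Levels reached in salt were then compared between histories. Pre-starved salt cultures were called higher than naive salt cultures for 1 of the 9 genes and lower for 2, where 24.7% and 18.2% of tested genes were called. The repressor gene areB was higher, at 37.9 and 38.4 against 20.0 and 23.9 CPM (log2 change 0.80, SE 0.13, adjusted p 5.48e-04). Lower levels were called for gdhA, at 153 and 138 against 231 and 223 CPM (log2 change -0.64, SE 0.12, adjusted p 0.00117), and for meaB, at 206 and 170.1 against 229 and 263 CPM (log2 change -0.39, SE 0.13, adjusted p 0.0309). Groups did not overlap for 8 of the 9 genes, called or not, so lack of overlap does not set these 3 apart. DESeq2 called 5 of the 9 genes in this comparison and limma with duplicate correlation 8. The share of all tested genes called under these settings is not given. These counts thus cannot tell a move of the 9 genes from one of the whole call rate. For gltA the 95% interval of the log2 difference ran from -0.85 to 0.04 (adjusted p 0.134), for glnA from -0.78 to 0.05 (adjusted p 0.143) and for areA from -0.10 to 0.68 (adjusted p 0.223). For nmrA it ran from -0.09 to 0.57 (adjusted p 0.224), so its level in salt was not called different between histories. The call of meaB was lost with library totals (-0.32, adjusted p 0.0547) and in a fit of only the groups compared (-0.43, adjusted p 0.0515). It was also lost without pre-starved salt culture B (-0.26) or naive salt culture B (-0.28).

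The conidial markers summed to 45.8 and 51.2 CPM in naive salt and 250.3 and 547 CPM in pre-starved salt cultures, and to 51.9 and 40.0 and 152 and 301 CPM in naive and pre-starved used cultures. Markers of sexual development (nsdD, veA and steA) summed to 900.2 and 901 CPM in naive salt and 1601 and 1488 CPM in pre-starved salt cultures, with 3 of 3 called higher where 24.7% of tested genes were. Their sum was 545 to 924 CPM in all cultures but the pre-starved salt and used ones. In starved against grown cultures 1 of the 3 sexual markers was called higher and 1 lower, where 38.8% and 34.6% of tested genes were. Whether the cultures held conidial or sexual cells, and whether such cells hold part of the history differences, was not tested.

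Used medium for 1 h also lowered most of the genes. These comparisons share their refed cultures with those of salt, so the 2 sets of changes are not independent. Against naive refed cultures 8 of 9 genes were called lower in naive used cultures and meaB higher, where 38.0% and 38.1% of tested genes were called lower and higher. In pre-starved cultures 8 of 9 were called lower, against 37.1% of tested genes, and meaB was not called.

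The gdhA level in used medium was 156 and 142 CPM in naive (log2 change -3.65, SE 0.13, adjusted p 2.15e-10) and 113 and 95.9 CPM in pre-starved cultures (log2 change -5.61, SE 0.15, adjusted p 4.28e-11). For gltA it was 173 and 219 CPM in naive (log2 change -2.39, SE 0.22, adjusted p 4.61e-07) and 178 and 105 CPM in pre-starved cultures (log2 change -5.16, SE 0.24, adjusted p 1.30e-09). As in salt, both genes fell farther in pre-starved cultures. The glnA level was 1830.4 and 1506 CPM in naive (log2 change -2.31, SE 0.20, adjusted p 3.30e-07) and 1261 and 1020.2 CPM in pre-starved cultures (log2 change -3.25, SE 0.21, adjusted p 1.91e-08). For meaA it was 162 and 149.9 CPM in naive (log2 change -3.41, SE 0.20, adjusted p 8.50e-09) and 301 and 194 CPM in pre-starved cultures (log2 change -3.26, SE 0.20, adjusted p 1.14e-08). All 4 were below the refed cultures of the same history, and gltA and meaA differed widely between the 2 pre-starved used cultures.

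The activator gene areA stood at 99.8 and 100.5 CPM in naive used (log2 change -0.87, SE 0.18, adjusted p 7.45e-04) and 163 and 127 CPM in pre-starved used cultures (log2 change -1.17, SE 0.18, adjusted p 6.49e-05). Its antagonist areB stood at 20.1 and 15.7 CPM in naive (log2 change -1.94, SE 0.14, adjusted p 5.33e-08) and 28.9 and 33.3 CPM in pre-starved cultures (log2 change -1.55, SE 0.14, adjusted p 3.60e-07). The lowest means of areB among all groups were thus those of the naive used and naive salt cultures. The inhibitor gene nmrA stood at 21.1 and 21.7 CPM in naive (log2 change -1.25, SE 0.15, adjusted p 8.88e-06) and 24.4 and 26.1 CPM in pre-starved cultures (log2 change -2.02, SE 0.16, adjusted p 1.12e-07). For tamA the levels were 36.3 and 57.5 CPM in naive (log2 change -1.19, SE 0.26, adjusted p 0.00105) and 52.8 and 55.2 CPM in pre-starved cultures (log2 change -1.43, SE 0.26, adjusted p 2.49e-04), with the naive cultures far apart. The activator gene areA thus stayed above the level of 4 h starvation in all salt and used cultures, while nmrA lay below it in all of them. Used and starved cultures were not compared by a test. In pre-starved salt against starved cultures nmrA was not called (log2 change -0.42, adjusted p 0.0521). RLE size factors, DESeq2 and limma with duplicate correlation called it lower (adjusted p 0.0473, 0.0356 and 0.00586).

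In the interaction of history and used medium 5 of the 9 genes were called lower, against 12.3% of tested genes. The difference between the 2 changes was -2.76 on the log2 scale for gltA (SE 0.29, adjusted p 7.24e-05), -1.96 for gdhA (SE 0.17, adjusted p 2.20e-05) and -0.94 for glnA (SE 0.27, adjusted p 0.0226). It was -0.77 for nmrA (adjusted p 0.0203) and -0.58 for meaB (adjusted p 0.0356). Both of these calls were lost with library totals (adjusted p 0.0605 and 0.144), and that of meaB also on leaving out any 1 of the 8 cultures (-0.65 to -0.51). The call of nmrA was lost without naive refed A, naive used B or pre-starved used A (-0.58, -0.74 and -0.72), and that of glnA without either naive refed culture, pre-starved refed B, naive used A or pre-starved used B (-0.95 to -0.78). The calls of gdhA and gltA in both interactions held under every alternative run. For areB the difference was 0.39 and not called (95% interval -0.02 to 0.80, adjusted p 0.146). It was called higher with library totals (0.63, adjusted p 0.0336) and without naive used culture A (0.58).

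Pre-starved used cultures were called higher than naive used cultures for areB, areA and meaA and lower for gdhA, glnA and meaB, against 21.6% and 18.1% of tested genes. The log2 differences were 0.80 for areB (adjusted p 7.09e-04), 0.54 for areA (adjusted p 0.0326) and 0.67 for meaA (adjusted p 0.0120). They were -0.51 for gdhA (adjusted p 0.00545), -0.55 for glnA (adjusted p 0.0386) and -0.41 for meaB (adjusted p 0.0255). Of these, areB kept its call under every alternative, and each of the other 5 lost it on leaving out at least 1 culture. A fit of only the groups compared also lost the calls of areA, meaA and glnA (0.51, 0.64 and -0.58, adjusted p 0.0681, 0.0997 and 0.0816). Without pre-starved used culture A the difference was 0.34 for areA, 0.31 for meaA and -0.39 for meaB, and without pre-starved used culture B it was -0.40 for gdhA, -0.40 for glnA and -0.44 for meaB. Calls were also lost without naive used culture A for areA, glnA and meaB (0.53, -0.40 and -0.34) and without naive used culture B for areA and meaA (0.53 and 0.61). The glutamate synthase gene gltA was not called (log2 difference -0.47, adjusted p 0.0882), but was with limma and duplicate correlation (adjusted p 0.00255) and without pre-starved used culture A (-0.90).

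The levels of the bZIP gene meaB followed another course. Its levels were 221 and 219.7 CPM in naive refed, 229 and 263 CPM in naive salt and 342 and 309 CPM in naive used cultures. It was higher in used medium (log2 change 0.56, SE 0.13, adjusted p 0.00182) and not called in salt (log2 change 0.16, SE 0.13, adjusted p 0.288). With library totals it was called higher in both (0.68, adjusted p 2.51e-04 in salt and 0.93, adjusted p 1.76e-05 in used medium). In pre-starved cultures the levels were 250.4 and 245 CPM refed, 206 and 170.1 CPM in salt (log2 change -0.40, SE 0.13, adjusted p 0.0149) and 239.6 and 249 CPM in used medium (log2 change -0.02, SE 0.13, adjusted p 0.889). The call in pre-starved salt was lost without pre-starved refed culture A (-0.38, adjusted p 0.0589) or salt culture B (-0.26, adjusted p 0.142). The direction in pre-starved cultures also turned on the scaling: with library totals meaB was called higher in salt (log2 change 0.36, adjusted p 0.0166) and in used medium (0.58, adjusted p 8.53e-04). Over the 16 cultures the Pearson r of log2 CPM between meaB and each of the other 8 genes ran from -0.22 to 0.44. Among those 8, the 28 pairs ran from 0.67 to 0.97, as a description across cultures that share 8 groups.

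**Figure D3:**
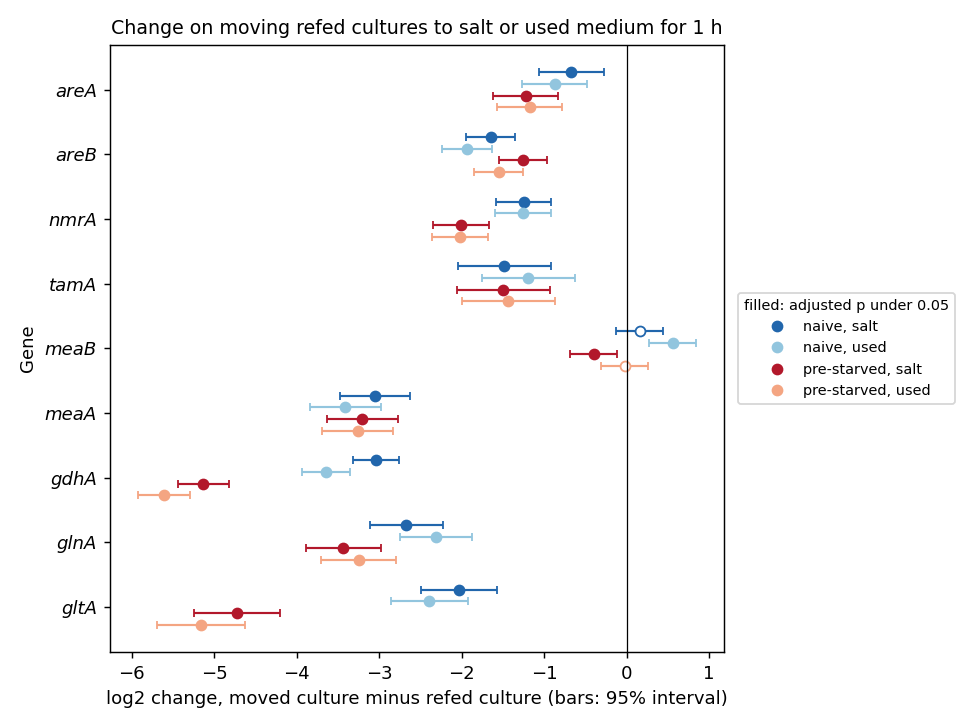
Log2 change of each gene on moving naive or pre-starved refed cultures for 1 h into salt or used medium, with its 95% interval; filled points have an adjusted p under 0.05. The 4 points of meaB lie between -0.40 and 0.56, and those of gdhA between -5.61 and -3.04.

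Salt and used medium were called different for 1 of the 9 genes in each history, a share not above that over all tested genes. The gdhA level was lower in used medium in naive (log2 change -0.61, SE 0.12, adjusted p 0.00595) and in pre-starved cultures (log2 change -0.48, SE 0.12, adjusted p 0.0169), where 14.6% and 17.0% of tested genes were called in either direction. The other 8 genes had log2 differences from -0.36 to 0.40 in naive and from -0.43 to 0.38 in pre-starved cultures. The gdhA call was lost without naive salt culture A or naive used culture B (log2 differences -0.58 and -0.55). In pre-starved cultures it was lost without salt culture A or used culture B (-0.40 and -0.37). A fit of only the groups compared also lost it there (-0.45, adjusted p 0.148).

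One hour in salt was also set against the 4 h of the first starvation, which differed in growth and medium changes as well as in time. Naive salt cultures were higher than starved cultures for 7 of the genes and lower for areB and nmrA, where 23.6% and 29.2% of tested genes were called. The log2 difference was -0.79 for areB (SE 0.13, adjusted p 3.89e-04) and -0.66 for nmrA (SE 0.15, adjusted p 0.00312). The largest rise was that of gltA (log2 change 2.12, SE 0.21, adjusted p 6.22e-06), and the smallest, areA (log2 change 0.60, SE 0.18, adjusted p 0.0136), lost its call without either starved culture (0.0563 and 0.0566 as adjusted p) or naive salt culture A (0.0597). Pre-starved salt cultures were higher than starved ones for 7 genes, against 17.5% of tested genes, the largest differences being those of meaA (log2 change 2.20, SE 0.19, adjusted p 7.87e-06), gltA (log2 change 1.72, SE 0.21, adjusted p 8.50e-05) and tamA (log2 change 1.59, SE 0.26, adjusted p 7.27e-04). The calls of meaB, gdhA and glnA there (log2 changes 0.56, 0.54 and 0.65) were lost without starved culture A or pre-starved salt culture A for meaB (0.39 and 0.42) and glnA (0.51 and 0.47), and without starved culture B for gdhA (0.44). A fit of only the groups compared also lost those of meaB and glnA (0.54 and 0.63, adjusted p 0.0691 and 0.0639).

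Ratios of genes within a culture do not depend on the scaling. Per kb of exon, glnA counts were 33.6 to 38.9 times those of gltA in the 4 grown and naive refed cultures. They were 8.99 and 9.36 times those of gltA in the 2 pre-starved refed cultures and 43.3 and 51.1 times in the 2 starved ones. In salt the ratio was 19.2 and 24.7 in naive and 23.2 and 21.7 in pre-starved cultures. In used medium it was 45.2 and 29.5 in naive and 30.4 and 41.5 in pre-starved cultures, so that used and starved cultures overlapped. Transcripts of the 2 enzymes of the glutamine route thus stood closer to each other after refeeding from starvation than in growth. Counts of gdhA were 0.213 to 0.220 times those of glnA in grown and naive refed cultures and 0.421 and 0.486 times in pre-starved refed ones. Against gltA, gdhA stood at 7.16 to 8.56 times in grown and naive refed and at 7.79 and 6.37 times in starved cultures, which overlapped. It stood at 3.94 and 4.36 times in pre-starved refed, 2.66 to 3.82 times in naive and 2.60 to 3.73 times in pre-starved salt and used cultures.

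Opponents of AreA also changed in ratio to areA. Per kb, nmrA stood at 0.417 to 0.716 times areA in grown and naive refed cultures, at 0.820 and 0.937 times in starved cultures, and at 0.340 to 0.423 times in naive and 0.292 to 0.402 times in pre-starved salt and used cultures. The ratio of areB to areA was 0.618 to 0.736 in grown and naive refed, 0.835 and 0.944 in starved, 0.278 to 0.377 in naive and 0.316 to 0.491 in pre-starved salt and used cultures. Both ratios were thus above those of growth after 4 h of starvation and, but for nmrA in naive used culture B, below them after 1 h. In pre-starved refed cultures nmrA stood at 0.512 and 0.767 times areA, and areB at 0.416 and 0.618 times. Against these, the pre-starved salt and used cultures were lower for nmrA but overlapped for areB. The ratio of meaB to areA was 1.58 to 2.03 in grown and naive refed, 2.16 and 2.77 in starved and 2.88 to 5.04 in naive salt and used cultures. It was 0.932 and 1.39 in pre-starved refed and 1.79 to 2.89 in pre-starved salt and used cultures, the latter overlapping those of growth. Together meaA, gdhA, glnA and gltA took 1.09 and 1.15% of all counts in grown, 0.0948 and 0.103% in starved and 1.63 and 1.78% in pre-starved refed cultures.

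**Figure D4:**
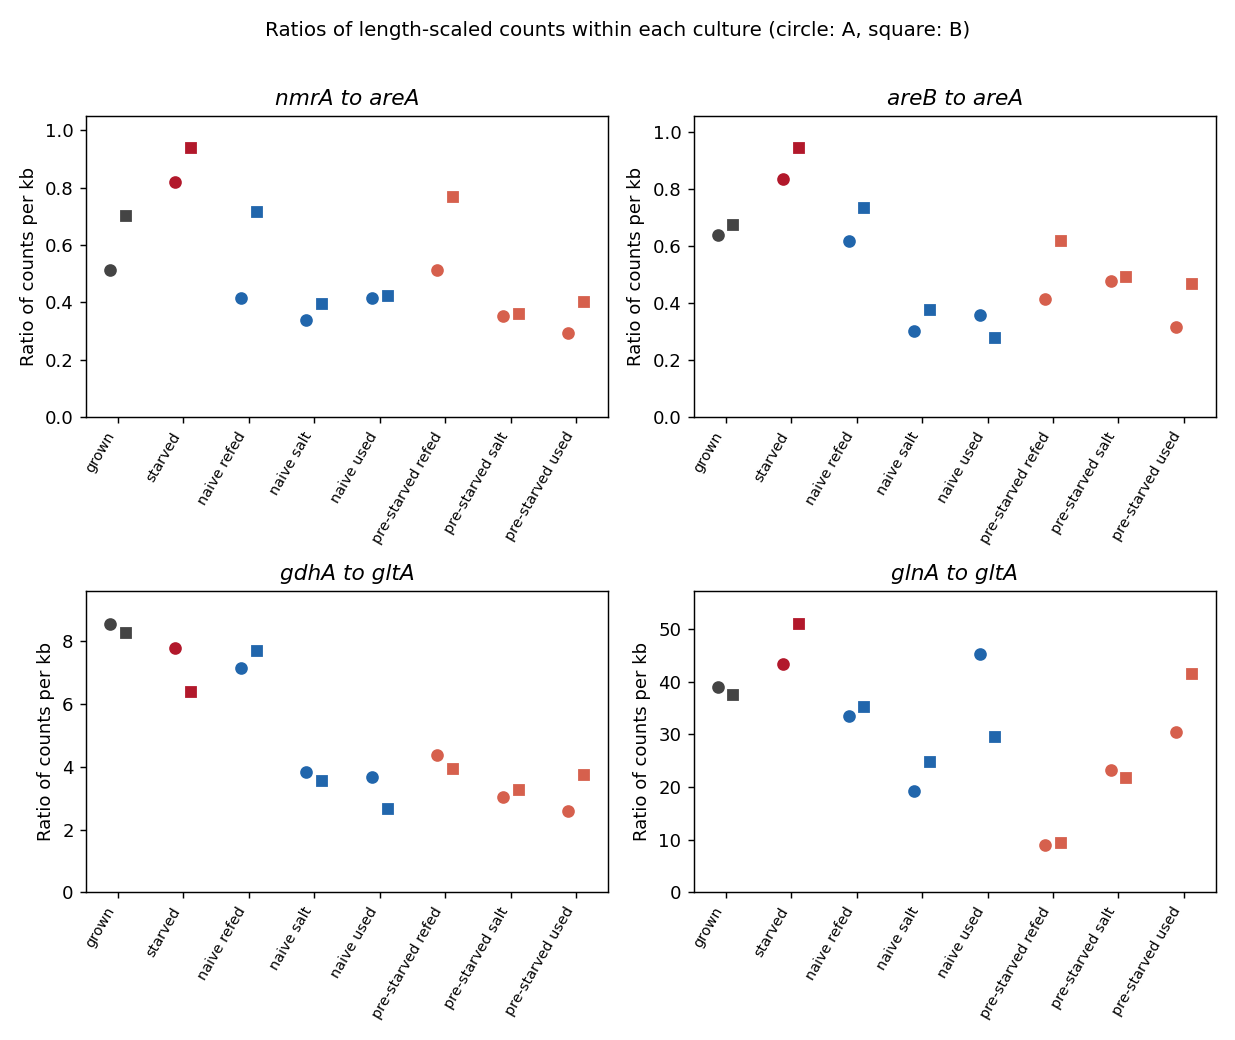
Ratios of counts per kb of exon between pairs of genes in each culture, on linear axes that start at 0; circles are culture A and squares culture B. The ratio of glnA to gltA is lowest in the pre-starved refed cultures (8.99 and 9.36) and stands at 43.3 and 51.1 in the starved ones, with naive used culture A between these at 45.2.

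Nitrate assimilation, which supplies the ammonium in this medium, moved with the enzyme genes. Of 5 nitrate genes 4 were lower in starved than in grown cultures and 4 lower in naive salt than in naive refed cultures, where 34.6% and 39.1% of tested genes were called lower. In naive salt cultures niaD, nitrate reductase (log2 change -6.68, SE 0.22, adjusted p 1.17e-10), and niiA, nitrite reductase (log2 change -6.06, SE 0.16, adjusted p 4.80e-11), were lowered most. Genes for other nitrogen sources were mixed, with 5 of 10 higher and 4 lower in starved cultures and 7 higher and 2 lower in naive salt cultures, where 38.8% and 36.3% of tested genes were called higher and the shares called lower were those above. In naive salt cultures the proline genes prnD (log2 change 7.44, SE 0.40, adjusted p 4.11e-09) and prnC (log2 change 7.18, SE 0.20, adjusted p 6.02e-11) rose most, and uaZ, urate oxidase (log2 change -2.25, SE 0.73, adjusted p 0.0134), and uapA, a urate and xanthine permease (log2 change -1.28, SE 0.21, adjusted p 9.43e-05), were lower.

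The NAD-linked glutamate dehydrogenase gene gdhB, which serves the breakdown of glutamate, ran opposite to gdhA on entry into starvation. It stood at 58.3 and 76.1 CPM in grown and 769 and 889 CPM in starved cultures (log2 change 3.62, SE 0.31, adjusted p 3.29e-07), and at 70.5 and 72.4 CPM in naive refed and 427 and 441 CPM in naive salt cultures (log2 change 2.60, SE 0.29, adjusted p 3.98e-06). In both cases gdhA fell. In pre-starved refed cultures, however, gdhB stood at 128 and 135 CPM and was also higher than in naive refed ones (log2 change 0.88, SE 0.28, adjusted p 0.0233).

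The genes most like each of the 9 were found by Pearson r of log2 CPM over the 16 cultures among 7355 genes whose mean reached 10 CPM, and are given as a description. They were AN5662 for areA (r 0.962), AN6536 for areB (0.996), AN6563 for nmrA (0.979), AN2364 for tamA (0.968) and AN0607 for meaB (0.926). For the others they were AN4750 for meaA (0.980), AN5883 for gdhA (0.995), AN2286 for glnA (0.996) and AN4086 for gltA (0.986). RefSeq names AN6536 his3 and AN0607 sidC. The second for meaB was AN4899 (pex19, r 0.901), its direct neighbour in RefSeq gene order, and without strand in the libraries, reads of overlapping transcripts cannot be told apart. None of the 9 genes overlaps another gene in RefSeq. Of the 27 genes ranked in the top 3 for each of the 9, 12 were also ranked so over the 8 group means.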

How the data were processed

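RNA of 32 libraries was prepared with the TruSeq RNA kit v2, which keeps no strand, and read as 50 bp single ends, per the labels' protocols. The reads were mapped to the A. nidulans FGSC A4 assembly s10-m03-r07, per the labels, and the tools in the submitters' processing notes, given without a role, are BWA, HTSeq, Trimmomatic 0.36, edgeR and limma. The authors deposited raw counts per gene, 1 column per library, and columns of log2 FPKM per group and log2 exon length in kb. Of the deposited log2 columns only the exon length was used here.

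Technical libraries (19634577 to 33202687 counts each) were summed per culture, since they differed far less (chi-square divided by its degrees of freedom 2.12 to 2.29) than cultures of a group did (44.2 to 272.1). The labels call A and B biological replicates and say nothing on how the cultures were kept apart. Genes were filtered with filterByExpr (minimum count 10), which left 10022 tested and removed 659, with 0.00149% of the counts. One edgeR 4.0.16 quasi-likelihood model with TMM scaling was fitted over the 8 groups in R 4.3.3 (8 residual and 4.07 prior degrees of freedom), and 16 comparisons were made with Benjamini-Hochberg adjustment over all tested genes of each. With 2 cultures a group, calls of small changes are imprecise. Lack of overlap between groups is also a weak sign, and its share over all tested genes was not counted. It held for 2 of the 9 genes between naive refed and grown cultures, where none was called. The code was tested on simulated counts.

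The 9 genes and the lists of nitrate, other nitrogen, conidial and sexual genes were chosen with earlier results of these data known. All 9 were tested in each comparison, but not every gene is named in the text on each. For related nitrogen genes values were given by the rule of the most raised and most lowered called genes for naive salt cultures, and gdhB was named for its role after its values were seen. Gene symbols are background knowledge. RefSeq (ASM1142v1), of another build, was used for names and gene order only, holds all 9 identifiers and gives a symbol for 2. Alternatives were library totals, RLE size factors, no filter, a block on the culture letter, DESeq2 1.42.0, limma 3.58.1 with duplicate correlation, a fit of only the groups compared, and each culture left out. The limma run took the 32 technical libraries as observations, with 1 correlation of 0.793 for libraries of a culture. It added 12 calls and lost 0. Technical libraries are not separate cultures, so calls made by it alone are not further evidence from cultures.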

Additional observations from a re-analysis of the deposited data

Results flagged for a closer look

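The response to 1 h in salt or used medium differed between pre-starved and naive cultures, by the test of the difference itself, in 9 cases. For naive cultures this was the first removal of nutrients. For entry into salt the difference between the log2 changes, pre-starved minus naive, was -2.70 for gltA, -2.09 for gdhA, -0.76 for nmrA and -0.56 for meaB. For entry into used medium it was -2.76 for gltA, -1.96 for gdhA, -0.94 for glnA, -0.77 for nmrA and -0.58 for meaB. Both sets share the refed cultures, so they are not independent. The difference also takes in the refed levels, which were called higher in pre-starved cultures for gltA, gdhA and nmrA (log2 differences 2.29, 1.45 and 1.00). In salt and in used medium nmrA was not called between histories (0.24 and 0.24), nor was gltA (-0.40 and -0.47), while gdhA was called lower (-0.64 and -0.51). Only the cases of gltA and gdhA kept their calls under every alternative.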

How the results depend on the processing

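Over the 9 genes 119 results were recomputed under the alternatives, which gave 1381 values: 1249 kept direction and side of the threshold, 80 lost and 31 gained the call and 21 changed sign. Falls and rises of meaA, gdhA, glnA and gltA on starvation, refeeding and entry into salt or used medium kept their calls under all of them. The cause of the changes below was not tested.

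Library totals gave log2 changes of -0.0014 for meaB between refed histories, 0.36 and 0.58 for meaB in pre-starved salt and used medium, and 0.22 (tamA) and 0.081 (meaA) in the interaction with salt. For areB, pre-starved salt against starved (0.01) became -0.011 with RLE, -0.011 with DESeq2 and -0.0085 with only the groups compared, and -0.078 to 0.12 on leaving out cultures. Leaving out cultures also changed the sign of uncalled interactions, with ranges for salt of -0.31 to 0.31 (tamA) and -0.34 to 0.0093 (meaA), and for used medium of -0.58 to 0.035 (areA), -0.54 to 0.13 (tamA) and -0.21 to 0.43 (meaA). It did so for meaB in pre-starved used against refed (-0.044 to 0.0087) and tamA between used histories (-0.090 to 0.56).

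The number of the 9 genes called moved by over 1.5 times in these cases. The counts are given here without the share of all tested genes called under the same setting. On their own they cannot tell a move of the 9 genes from one of the whole call rate. Between salt histories (3) the number of the 9 genes called was 5 with DESeq2 and 8 with duplicate correlation. In the salt interaction (4) it was 7 with duplicate correlation and 2 to 5 on leaving out cultures, and in that with used medium (5) 2 to 4. Between used histories (6) it was 3 with only the groups compared and 3 to 4 on leaving out cultures. Used against salt gave, in naive cultures (1), 5 with duplicate correlation and 0 to 1 on leaving out cultures. In pre-starved cultures (1) it gave 3 with library totals, 2 with DESeq2, 4 with duplicate correlation, 0 with only the groups compared and 0 to 2 on leaving out cultures.

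Over all tested genes 311 were called between naive refed and grown cultures, 599 with DESeq2 and with duplicate correlation, 759 with only the groups compared and 64 to 128 without 1 culture. Between used histories 3978 fell to 2497 with only the groups compared. Used against salt gave 1463 in naive cultures and 568 to 976 without 1 culture, and in pre-starved cultures 1706, 2622 with duplicate correlation, 706 with only the groups compared and 816 to 1752 without 1 culture. For pre-starved salt against starved 3411 became 2130 to 2803. The share of calls that were higher was 52.8% for starved against grown and 69.8% with library totals, 46.1% and 27.8% for refed against starved, 50.1% and 31.7% between refed histories, 48.1% and 64.4% (naive) and 52.5% and 72.8% (pre-starved) for salt. For used medium it was 50.0% and 60.8% (naive) and 51.8% and 67.8% (pre-starved), for the interactions 58.7% and 77.8% (salt) and 55.2% and 75.1% (used), for used against salt 55.4% and 29.1% (naive) and 53.0% and 28.6% (pre-starved), and for pre-starved salt against starved 51.4% and 62.0%.

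Culture letters did not pair the samples in 1 common direction. Over 28 pairs of groups the correlation of same-letter deviations ran from -0.28 to 0.36, over 0.1 in 10 and under -0.1 in 12. It was 0.055 to 0.245 among the grown, starved, refed and naive salt groups and 0.144 to 0.362 among the pre-starved salt and used groups. Between these sets it ran from -0.283 to 0.0054. A block on the letter cannot take up a pairing that joins different letters, which was not tested. The block on the letter ended the call of meaB in the salt interaction (log2 -0.56, adjusted p 0.0512) and added nmrA in pre-starved salt against starved (-0.41, adjusted p 0.0255), and changed no other call of the 9 genes.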
